A study of Homo sapiens with 3 samples.

Results

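The small nucleolar RNA (snoRNA) host long non-coding RNAs examined here are 10 human genes, GAS5, SNHG1, SNHG5, SNHG6, SNHG7, SNHG8, SNHG12, SNHG15, SNHG16 and ZFAS1. Each transcript in the table whose gene carries 1 of these names in GENCODE v44, an annotation of the hg38 genome build, was taken and its counts were summed per gene. This gave 246 transcripts of 10 genes, out of 54495 named genes and 213543 features in the table. RNA-seq had been performed on THP-1, an established human monocytic leukemia cell line with the MLL-AF9 fusion, to follow early myeloid differentiation when the histone demethylase LSD1 is inhibited. The groups were untreated cells at 0 h, cells after 8 h with 0.2 µM GSK-LSD1 and cells after 24 h with 0.2 µM GSK-LSD1, with 1 library of ribosomal-RNA-depleted total RNA in each group. The deposited values are whole-number counts, with a total of 1475938 for the 0 h library, 1310912 for the 8 h library and 1444011 for the 24 h library. With 1 library per group, no difference has a replicate check, and every ratio compares libraries.

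SnoRNAs guide chemical modification of ribosomal and other RNAs, box C/D snoRNAs by ribose methylation and box H/ACA snoRNAs by pseudouridylation. Most human snoRNAs are encoded within introns of host genes and are released from the intron after splicing. In these hosts the spliced RNA carries no long open reading frame, and for several of them it is known to be degraded by nonsense-mediated decay, so that the spliced transcript and its snoRNAs can stand at very different levels.

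The sequences that carry the measurement are of 2 kinds. The first are the 4 snoRNAs within the hosts that held a count in any library, named after their values were seen. GENCODE v44 places them at chr1:28578749-28578822 on the minus strand (SNORD99, in SNHG12), chr17:76561109-76561192 on the plus strand (SNORD1B, in SNHG16), chr20:49278940-49279028 on the plus strand (SNORD12C, in ZFAS1) and chr20:49280319-49280409 on the plus strand (SNORD12B, in ZFAS1). They are written 5′ to 3′ with capitals marking the first TGATGA, a form of box C, and the last CTGA, a form of box D.
SNORD99: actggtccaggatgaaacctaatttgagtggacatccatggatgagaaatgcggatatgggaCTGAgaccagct
SNORD1B: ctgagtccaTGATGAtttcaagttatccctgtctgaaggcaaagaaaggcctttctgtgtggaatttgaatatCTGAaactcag
SNORD12C: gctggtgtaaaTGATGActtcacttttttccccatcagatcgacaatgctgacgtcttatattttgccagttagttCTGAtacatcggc
SNORD12B: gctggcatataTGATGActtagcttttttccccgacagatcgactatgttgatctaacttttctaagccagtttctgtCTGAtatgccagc
On the strand of the snoRNA, TGATGA was found in 231 (73.8%) and CTGA in 303 (96.8%) of the 313 SNORD transcripts in the table. SNORD99 held CTGA but not TGATGA, and the other 3 held both.

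The second kind are exon stretches that belong to 1 transcript alone, called particular bases here. They are exon bases covered, on the same strand, by no exon of another transcript in the table or of a coding transcript. The 3 stretches shown, chosen after their counts were seen, lie in ZFAS1 transcript ENST00000450535 (exon 5 of 6, chr20:49281752-49281818, plus strand, 67 bases), GAS5 transcript ENST00000454068 (exon 1 of 12, chr1:173867730-173867815, minus strand, 86 bases) and SNHG1 transcript ENST00000663092 (exon 1 of 10, chr11:62855933-62855953, minus strand, 21 bases). Capitals mark the particular bases and lower case up to 15 bases of the same spliced transcript on either side.
ZFAS1: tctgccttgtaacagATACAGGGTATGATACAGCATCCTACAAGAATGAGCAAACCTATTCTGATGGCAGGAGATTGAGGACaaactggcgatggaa
GAS5: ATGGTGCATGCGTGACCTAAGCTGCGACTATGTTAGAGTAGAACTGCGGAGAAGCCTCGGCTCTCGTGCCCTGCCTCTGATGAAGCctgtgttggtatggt
SNHG1: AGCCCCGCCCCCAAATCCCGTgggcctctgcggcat
The ZFAS1 stretch is all that separates its transcript, of 1075 exon bases, from the other transcripts, and that transcript held 34 counts over the 3 libraries. The SNHG1 stretch is the longest that any SNHG1 transcript has to itself, and its transcript held 0.

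The counts of the 10 genes together lay almost entirely in transcripts with such stretches. Of the 246 transcripts, 205 (83.3%) had no particular base, against 32.7% of the 48829 transcripts of other long non-coding RNA genes. Of these 205, 1 held a count, a transcript of SNHG6 with 4 of the 13 counts of that gene. Of the 41 transcripts with at least 1 particular base, 22 held a count, and together they carried 364 of the 368 counts of the group. The sums per gene therefore describe mainly reads in the part of each gene that 1 transcript has to itself. This part ran from 0.579% of the exon bases in SNHG1 to 86.0% in SNHG8.

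The same held across the table. Among all 128039 named transcripts, 386 of 32137 without a particular base held a count (1.20%), against 30635 of 95902 with at least 1 (31.9%). The transcripts without a particular base carried 2.31% of the counts of named transcripts. This share depends on which exons are taken as covering a base. It was 3.60% with exons on either strand and 3.80% with exons of every transcript of GENCODE v44, both chosen after seeing the data. Reads on exons shared by transcripts were thus largely left uncounted, although the counting tool and its treatment of shared reads are not given in the sources used here. Counts also followed the strand. Transcripts with over 100 particular bases on their own strand, all of them covered by exons on the other strand, held a count in 599 of 1391 cases (43.1%), against 24086 of 67744 (35.6%) where the other strand covered none. The annotation version of the table is not stated either. The same version number as in GENCODE v44 was carried by 203 of the 246 transcripts (82.5%), against 96.4% of all named transcripts.

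**Figure D1:**
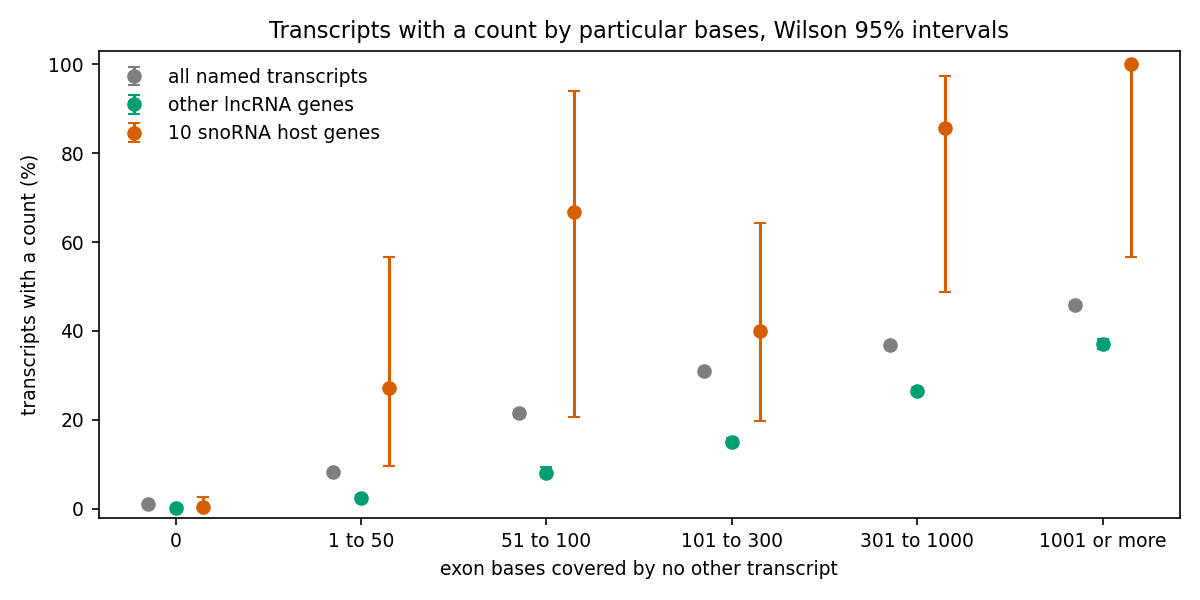
Percentage of transcripts with a count in any library (vertical axis) by their number of particular exon bases (horizontal axis), for all named transcripts, transcripts of other long non-coding RNA genes and those of the 10 snoRNA host genes, with Wilson 95% intervals. Without a particular base the percentages are 1.20%, 0.313% and 0.488%, and above 1000 particular bases they are 45.7%, 37.1% and 100%, the last from 5 transcripts.

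The 10 genes together held 132 counts in the 0 h library, 113 in the 8 h library and 123 in the 24 h library, which is 0.00894%, 0.00862% and 0.00852% of all counts. Counts were scaled by TMM factors, and the log2 ratio of the sums was 0.04 for 8 h against 0 h (exact 95% counting interval -0.34 to 0.41). It was 0.01 for 24 h against 0 h (-0.35 to 0.38) and -0.03 for 24 h against 8 h (-0.41 to 0.35). These intervals, like all that follow, take in counting error alone, because the reads have no molecular identifiers and need not come from separate molecules. Below, 3 counts in a row stand for 0 h, 8 h and 24 h in that order. A change of the whole group was not detectable at this depth. Ratios of single genes were taken for the 6 members that reached 10 counts in any library, GAS5, SNHG7, SNHG8, SNHG12, SNHG16 and ZFAS1. The other 4 fell short of this minimum and are given by their counts.

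**Figure D2:**
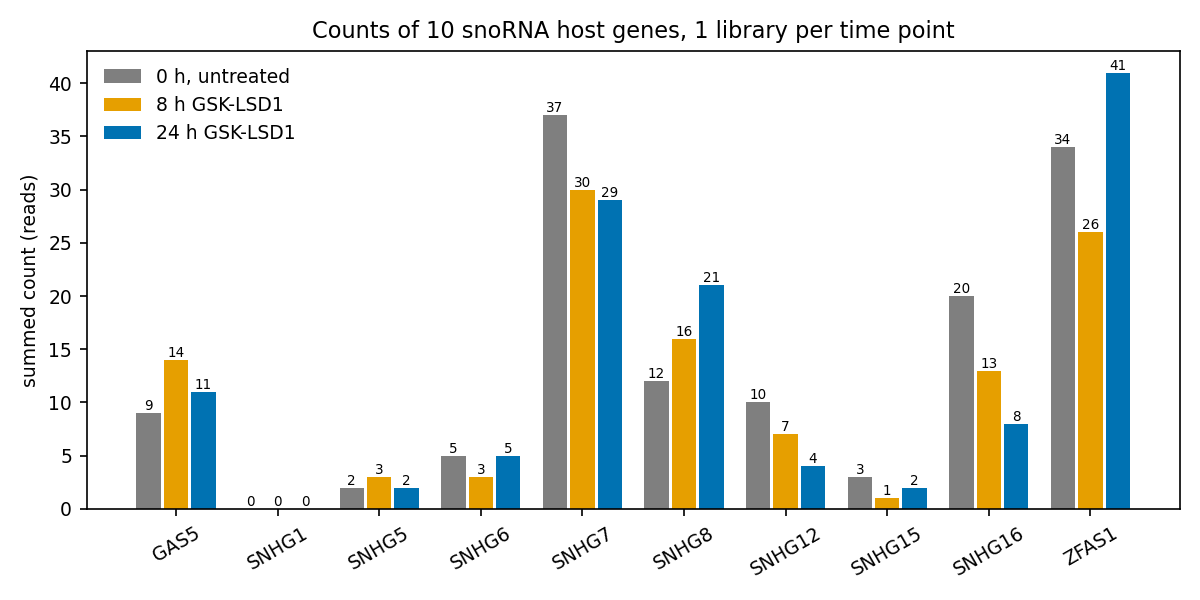
Summed counts (vertical axis, reads) of each of the 10 snoRNA host genes in the untreated library at 0 h and the GSK-LSD1 libraries at 8 h and 24 h, 1 bar per library. SNHG7 and ZFAS1 hold between 26 and 41 counts in each library, SNHG1 holds 0, and the other 7 genes hold between 1 and 21.

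The first role within the group is that of hosts whose snoRNAs in GENCODE v44 are of the box C/D kind, ZFAS1, SNHG16, SNHG6, SNHG5 and SNHG1. GAS5, for which RefSeq gives box C/D snoRNAs and 1 box H/ACA snoRNA, SNORA103, is described with them. ZFAS1 lies on the plus strand at chr20:49278178-49299600, next to ZNFX1 on the other strand, and hosts SNORD12, SNORD12B and SNORD12C. It held 34 counts at 0 h, 26 after 8 h and 41 after 24 h, the most of the 10 genes over the 3 libraries. Its log2 ratio was -0.12 at 8 h (-0.92 to 0.66) and 0.38 at 24 h (-0.31 to 1.08), both against 0 h. The libraries did not differ beyond counting error.

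Of the 14 ZFAS1 transcripts, 7 had particular bases and 6 held counts, while the 7 without any particular base held 0. ENST00000450535, with the 67-base stretch shown above, held 10, 10 and 14 counts. ENST00000623640, which keeps intron sequence around SNORD12 in its last exon and has 458 particular bases, held 12, 10 and 13. ENST00000371743, with an extended last exon of 1600 particular bases, held 10, 4 and 11. Per kilobase of particular bases, and over the 3 libraries, this is 507 counts for the first, 76.4 for the next and 15.6 for the last, so the short stretch was the most densely counted. Reads that run from it into neighbouring exons can be longer than the stretch itself, and the read length is not given in the sources used here, so these densities are descriptions. The transcript that the annotation marks as canonical, ENST00000620594, has 1498 particular bases at its far end and held 0, 1 and 1 counts.

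**Figure D3:**
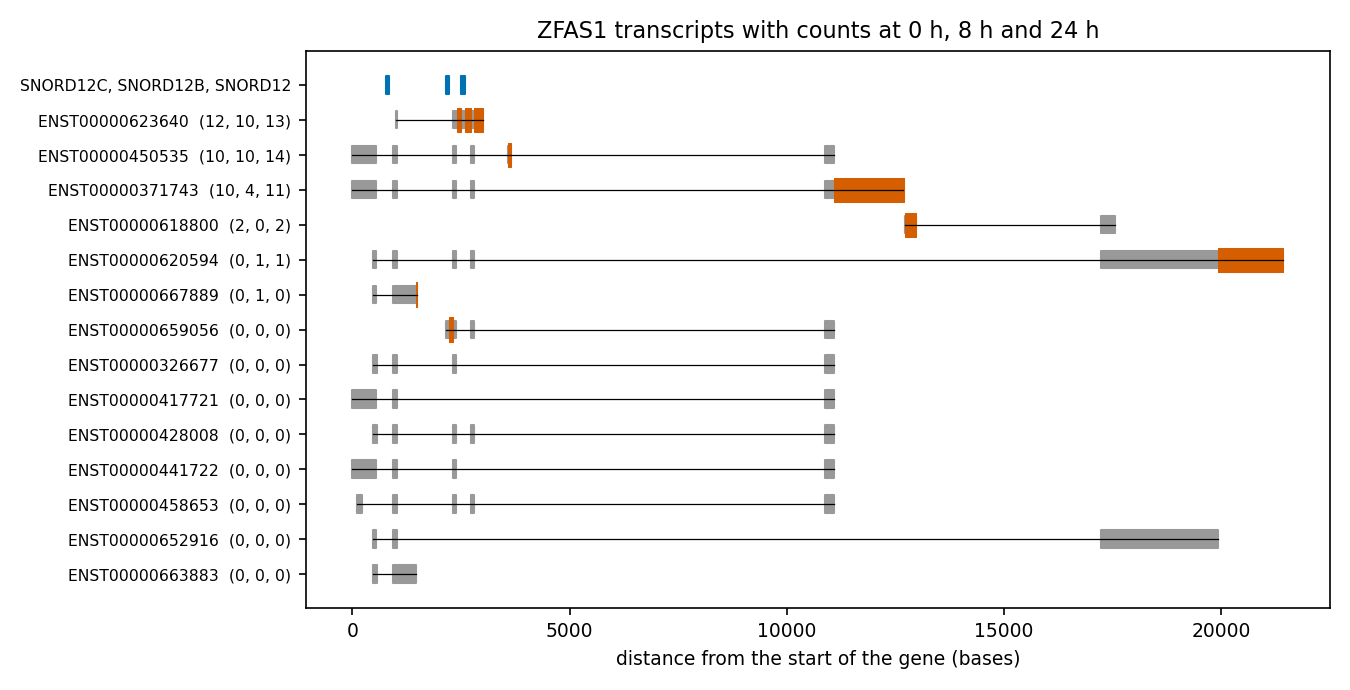
Exons (grey) of the 14 ZFAS1 transcripts by distance from the start of the gene (horizontal axis, bases), with particular stretches in orange, the 3 hosted snoRNAs in blue at the top and the counts at 0 h, 8 h and 24 h in brackets. Each of the 6 transcripts with a count has an orange stretch, and the 7 transcripts without one hold 0.

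SNHG16, on the plus strand at chr17:76557727-76670985, hosts SNORD1A, SNORD1B and SNORD1C. It held 20 counts at 0 h, 13 after 8 h and 8 after 24 h, the lowest at the last time point. The log2 ratio to 0 h was -0.36 after 8 h (-1.49 to 0.72) and -1.21 after 24 h (-2.60 to 0.04). The 24 h value is past 1 in size, but its interval includes 0. A retained-intron transcript, ENST00000587743, gave 15, 11 and 7 of these counts, and retained introns made up 80.5% of the counts of the gene. Taken alone that transcript gave a ratio of -0.99 at 24 h, and without retained introns SNHG16 no longer reached 10 counts. The values therefore describe RNA that still holds intron sequence more than spliced SNHG16.

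GAS5, named for its accumulation in growth-arrested cells, lies on the minus strand at chr1:173858559-173868882. It held 9 counts at 0 h, 14 after 8 h and 11 after 24 h, highest at 8 h. Its log2 ratio was 0.90 at 8 h (-0.41 to 2.29) and 0.40 at 24 h (-1.01 to 1.85), both against 0 h, and neither passed the threshold of 1. GENCODE v44 holds 91 GAS5 transcripts, of which 31 are in the table, 6 have particular bases and 3 held counts. RefSeq (GRCh38.p14) places 11 snoRNAs within GAS5, while GENCODE v44 has no snoRNA gene there. The particular stretches of ENST00000650796, a retained-intron transcript with 5, 7 and 4 counts, overlap SNORD78 in 65 bases and SNORD75 in 60 bases. The stretch of ENST00000454068 shown above, with 1, 4 and 4 counts, overlaps SNORD74 in 16 bases. How many of the GAS5 counts came from snoRNAs was not tested.

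SNHG6, SNHG5 and SNHG1 gave too few counts for ratios. SNHG6 held 5, 3 and 5 counts. SNHG5 held 2, 3 and 2, although it has 83 transcripts in the table, the most of the 10 genes. SNHG1, which hosts SNORD22 and SNORD25 to SNORD31, held 0 counts in each library over 54 transcripts. At this depth a 0 is compatible with as many as 3 counts, or 0.000203% of the 0 h library, 0.000229% of the 8 h library and 0.000208% of the 24 h library. Only 2 of the 54 SNHG1 transcripts had particular bases, 21 and 2 of them, which is 0.579% of the 3970 exon bases of the gene. The 0 of SNHG1 therefore says little about its RNA.

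The next role is that of hosts whose annotated snoRNAs are of the box H/ACA kind, SNHG7, SNHG8 and SNHG15. SNHG7 lies on the minus strand at chr9:136721366-136728184 and hosts SNORA17A and SNORA17B. It held 37 counts at 0 h, 30 after 8 h and 29 after 24 h. The log2 ratio was -0.04 at 8 h (-0.78 to 0.69) and -0.24 at 24 h (-0.99 to 0.50), both against 0 h, a difference within counting error. The 24 h value depended on the transcripts used. It was 0.05 with the most counted transcript alone and -1.002 without transcripts that overlap an exon of another gene. Its canonical transcript ENST00000414282, with 1850 particular bases, held 22, 16 and 21 counts. ENST00000447221, which keeps the intron with the snoRNAs and has 941 particular bases, held 13, 12 and 6. Per kilobase of particular bases the 2 transcripts were alike, at 31.9 and 32.9 counts over the 3 libraries.

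SNHG8, on the plus strand at chr4:118278703-118285316, hosts SNORA24. It held 12 counts at 0 h, 16 after 8 h and 21 after 24 h, the order of the time points. Its log2 ratio was 0.68 at 8 h (-0.49 to 1.89) and 0.92 at 24 h (-0.17 to 2.08), both against 0 h, so neither reached 1 and both intervals include 0. All of these counts lay in the canonical transcript ENST00000654083, whose last exon holds 5489 particular bases. Exons of PRSS12 on the other strand cover part of that exon and leave 3002 bases free. SNHG15, the host of SNORA9 on the minus strand of chromosome 7, held 3, 1 and 2 counts, too few for a ratio.

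SNHG12 hosts snoRNAs of both kinds, SNORD99 and the box H/ACA snoRNAs SNORA16A, SNORA44 and SNORA61. It lies on the minus strand at chr1:28578538-28583132 and held 10 counts at 0 h, 7 after 8 h and 4 after 24 h. The log2 ratio was -0.25 at 8 h (-1.88 to 1.29) and -1.21 at 24 h (-3.34 to 0.59), both against 0 h. The 24 h value is past 1 in size, its interval includes 0, and with a prior count of 2 it was -0.92. SNHG12 reached the minimum of 10 counts at 0 h alone, where it was highest, so the minimum itself favours low ratios to 0 h for this gene. All counts of the gene lay in ENST00000650239, whose 523 particular bases are within an intron of another SNHG12 transcript. The canonical transcript has no particular base and held 0 counts.

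Read against all features tested, the members did not stand out at 8 h. Of the 6 members, 0 had a log2 ratio above 1 and 0 below -1 at 8 h against 0 h, where 6.03% of the 10054 features tested were above 1 and 8.08% below -1. The counting interval excluded 0 for 0 members, against 20.6% of all features. At 24 h against 0 h, 0 members were above 1, against 8.15% of features, and 2 were below -1, SNHG12 and SNHG16, against 7.26%. SNHG12 entered through its 0 h count alone, which favours a low ratio. With a minimum of 30 counts over the 3 libraries in its place, chosen after seeing the data, SNHG12 was left out and 1 of 5 members was below -1, against 4.25% of 8379 features. Under the minimum of 10 counts in any library, the interval at 24 h against 0 h excluded 0 for 0 of the 6 members. It did so for 25.0% of the 10054 features. Between 24 h and 8 h, 0 members were above 1 and 0 below -1, against 6.06% and 3.39% of features, and the interval excluded 0 for 0 members, against 10.3%. With 6 members, each of the background shares of 3.39% to 8.15% stands for less than 1 gene. Many features in this background have more counts than any member and so narrower intervals.

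The median log2 ratio of the 6 members was -0.08 between 8 h and 0 h, 0.07 between 24 h and 0 h and -0.35 between 24 h and 8 h. Over all features tested it was -0.01, -0.01 and 0.00, and over 861 other long non-coding RNA genes -0.02, 0.05 and 0.07. The sign of the members' median depended on the transcripts used. Between 24 h and 8 h it was 0.02 without retained introns and 0.23 with the most counted transcript alone. It was 0.24 there without transcripts that hold a snoRNA. Without transcripts that overlap another gene it was -0.96 there and -1.21 between 24 h and 0 h, over 3 members. With the minimum of 30 counts it was 0.38 between 24 h and 0 h. Between 24 h and 8 h the ratios of single members ran from -0.96 (SNHG12) to 0.51 (ZFAS1), and each interval included 0.

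**Figure D4:**
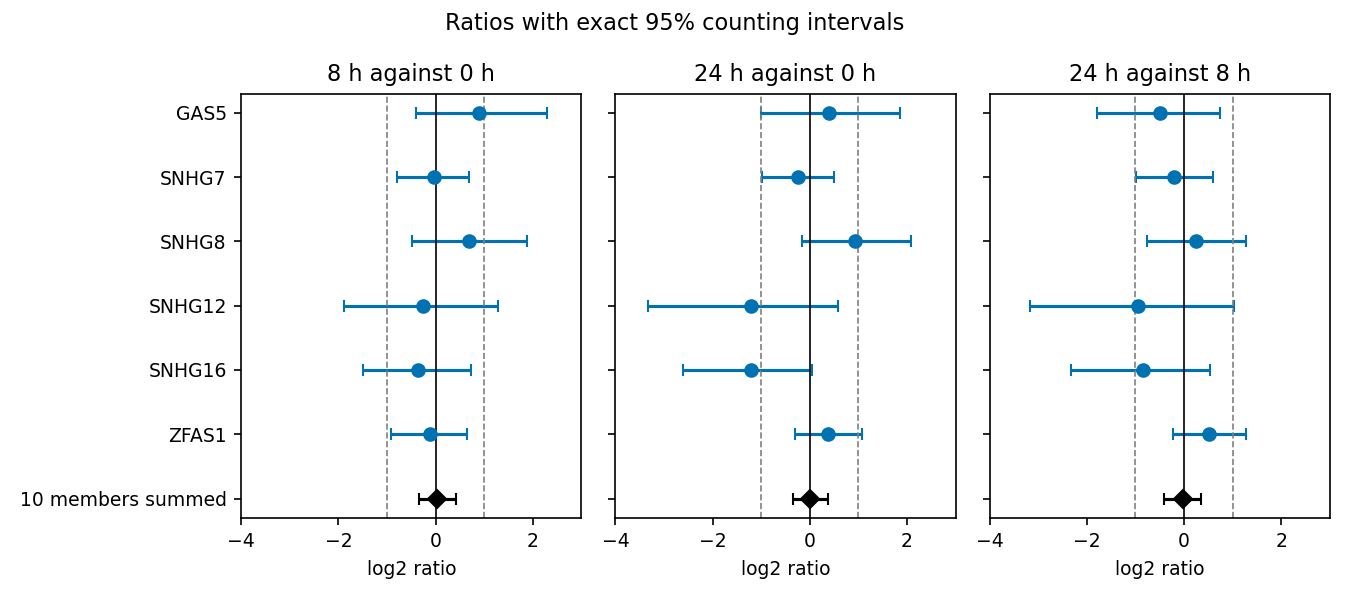
Log2 ratios (horizontal axis) of the 6 members with at least 10 counts in a library (circles) and of the 10 members summed (diamond) in the 3 comparisons, with exact 95% counting intervals. Dashed lines mark -1 and 1, and each interval crosses 0.

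The sum combined unlike parts. Many of the counted transcripts share bases with an exon of another gene, on the other strand or, in ZFAS1, also small RNA genes on the same strand, and these held 81, 75 and 100 counts. The transcripts with no such overlap held 51, 38 and 23 counts. Between 24 h and 0 h the log2 ratio was 0.42 (-0.02 to 0.86) for the overlapping transcripts and -1.04 (-1.81 to -0.30) for the others. Overlap was judged on whole transcripts, so it need not touch the particular bases. All 458 particular bases of ENST00000623640 and all 1600 of ENST00000371743, both of ZFAS1, are free of exons on the other strand. Of the 5489 of SNHG8 transcript ENST00000654083, 3002 are free, and of the 1850 of SNHG7 transcript ENST00000414282, 756. The sum of the transcripts free of overlap fell at 24 h beyond counting error, but only under this sorting of whole transcripts. Of the members, 3 still reached 10 counts in it, SNHG7 with 13, 12 and 6, SNHG12 with 10, 7 and 4 and SNHG16 with 20, 13 and 8. None of them reached 10 at 24 h, so the minimum favours low ratios at 24 h and their single ratios add no support to the fall of the sum, which has no such minimum. For SNHG7 the counts are those of the intron-keeping transcript described above. This is 1 of 4 choices of transcripts tried, and under the other 3 the interval of the sum included 0.

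A further split by position was made after the values were seen. Of the transcripts with particular bases, 25 had all of them in introns of other transcripts, and these held 93, 76 and 73 counts, or 65.8% of the counts of the group. The 15 transcripts whose particular bases lay outside other transcripts held 37, 37 and 48. Per kilobase of particular bases this is 30.4 counts over the 3 libraries in introns and 11.3 outside. Most counted reads of the group thus came from stretches that other transcripts of the same strand treat as intron.

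Levels were compared between genes per length. Summed over transcripts, CPM (counts scaled to a common library size) per kilobase of exon was highest for ZFAS1 in each library, at 21.4, 20.5 and 27.2. SNHG7 stood at 10.9, 10.6 and 9.11, SNHG16 at 9.52, 6.03 and 3.12, and GAS5 at 3.80, 8.47 and 6.96. SNHG8, whose counts spread over a long last exon, stood at 1.27, 2.03 and 2.40. Pooled over the 3 libraries, counts per kilobase of particular bases were, in order, SNHG7 at 32.3, SNHG12 at 31.4, ZFAS1 at 25.5, SNHG16 at 24.4, GAS5 at 21.5, SNHG6 at 16.7, SNHG15 at 10.8, SNHG8 at 8.62 and SNHG5 at 5.58. SNHG7 led in no single library. Scaled as CPM per kilobase of particular bases, SNHG12 stood at 9.73, 8.17 and 4.21, SNHG7 at 8.11, 7.89 and 6.87 and ZFAS1 at 5.58, 5.12 and 7.28. At 0 h and 8 h the order of ZFAS1 and SNHG7 thus depends on which length is used, while at 24 h ZFAS1 was higher by both.

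The hosted snoRNAs showed the same dependence on shared exons. Of 26 snoRNA transcripts in the table within 9 of the hosts, 22 (84.6%) had no particular base, since an exon of another transcript covers them, and 0 of the 22 held a count. All 4 with particular bases held counts, and these are the sequences shown above. SNORD99, SNORD1B and SNORD12C are particular over their whole length, while SNORD12B has only 3 particular bases of its 91. SNORD12C held 5, 9 and 6 counts, SNORD99 held 6, 2 and 7, SNORD12B 0, 2 and 1, and SNORD1B 0, 0 and 2. Summed, the hosted snoRNAs held 11, 13 and 16 counts, and the log2 ratio to 0 h was 0.50 after 8 h (-0.77 to 1.81) and 0.65 after 24 h (-0.54 to 1.91). The other 964 snoRNA transcripts of the table, of which 18.9% had no particular base, held 957, 1153 and 1305 counts, with ratios of 0.53 (0.41 to 0.66) and 0.56 (0.44 to 0.68). The ratios of the hosted snoRNAs could not be told from 0 at these counts, and the value at 8 h depended on SNORD12C. Without SNORD12C the sum gave -0.32 at 8 h and 0.85 at 24 h, both against 0 h, and 1.17 at 24 h against 8 h.

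Another 28 long non-coding RNAs were listed as snoRNA hosts, without a check of the snoRNAs within them. Of these 28, 27 were in the table and 11 had at least 10 counts in a library. At 8 h against 0 h 1 of the 11 was above 1 and 0 below -1, where 6.03% and 8.08% of all features were. At 24 h against 0 h 0 were past 1 in either direction, where 8.15% of all features were above and 7.26% below. SNHG14, the host of large snoRNA clusters on chromosome 15, held the most, 319, 192 and 205 counts, with ratios of -0.47 (-0.74 to -0.21) at 8 h and -0.52 (-0.78 to -0.27) at 24 h. LINC-PINT held 15, 29 and 26 counts and was the 1 above the threshold at 8 h, at 1.21 (0.27 to 2.22). SNHG3 held 189, 139 and 158 counts in only 3 transcripts with 2912 particular bases, about as many as the 2971 of SNHG7. SNHG4 held 77, 45 and 66 counts, SNHG26 held 55, 38 and 35, and TTN-AS1 held 47, 24 and 39. SNHG32 held 42, 27 and 29, SNHG17 held 26, 18 and 17, and SNHG19 held 24, 15 and 23. CYTOR held 14, 11 and 13 and SNHG20 held 10, 8 and 5. The intervals of these last 9 genes included 0 in both comparisons with 0 h.

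**Figure D5:**
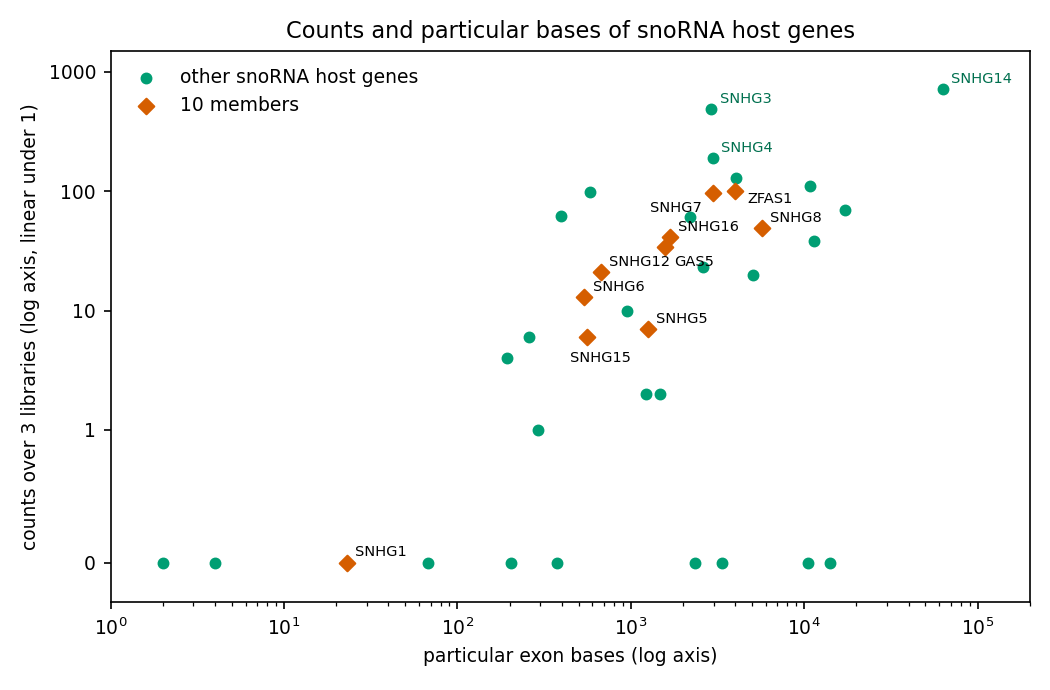
Counts over the 3 libraries (vertical axis, log scale, linear under 1) against particular exon bases (horizontal axis, log scale). Orange diamonds are the 10 members, and green circles are 27 other genes listed as snoRNA hosts. SNHG1, with 23 particular bases, holds 0 counts, and other listed genes with over 1000 particular bases also stand at 0.

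Checks on the libraries moved with time as well. The mitochondrial ribosomal RNA MT-RNR2 held 1661, 9 and 743 counts, and MT-RNR1 held 712, 3 and 271. The nuclear RNAs MALAT1 (1073, 656 and 684 counts) and NEAT1 (1025, 617 and 494 counts) were lower at both later times, with log2 ratios at 24 h against 0 h of -0.54 (-0.68 to -0.40) and -0.94 (-1.10 to -0.78). Their part in the values of the snoRNA hosts was not tested. Of 12 myeloid markers, 8 were in the table under a gene name and 5 held counts, 256, 169 and 182 in sum. MIR223HG held most of them, with 179, 119 and 133 counts, and CD33 held 67, 44 and 45. MPO, CTSS and AIF1 were at 0, but here mostly transcripts other than coding ones carry gene names, so a 0 says little about the coding RNA. Of the markers of other cell types in the table, the 3 of T cells, 3 of erythroid cells, 4 of epithelial cells and 3 of fibroblasts were at 0 in each library. Of the B cell markers, PAX5 held 1, 0 and 1 counts and MS4A1 was at 0.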

How the data were processed

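The 3 RNA-seq libraries came from untreated THP-1 cells and from cells after 8 h and 24 h of GSK-LSD1. Reads were mapped by the authors to hg38 through the Seq2science pipeline (fastp and STAR in the submitters' processing notes, versions not given), and the deposited values are whole-number counts per feature without normalization. Ensembl transcripts took their gene names from GENCODE v44, with version numbers ignored. Features named by protein accessions, which the table does not pair with genes, were kept as features of their own. Coding transcripts stand mostly under such accessions.

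Library sizes were scaled by TMM on features that reached 10 counts in any library (edgeR 4.0.16 in R 4.3.3), with factors of 1.04, 0.977 and 0.984. Log2 ratios used no prior count. Intervals are exact (Clopper-Pearson) 95% intervals conditional on the sum of both counts. With 1 library per group no p-value was computed. Features with 0 counts in 1 library of a comparison were counted as past the threshold of 1. Particular bases were computed from the exons of GENCODE v44, and snoRNAs were assigned to a host when they lay within it on the same strand. Python 3.11.15 with numpy 2.4.6, pandas 2.3.3 and scipy 1.17.1 was used, and the ratio and the particular bases were tested on simulated data. Alternatives were DESeq2 1.42.0 size factors, total counts, other filters, prior counts, thresholds and choices of transcripts.

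The members and lists were chosen with earlier results of these data known. Named are all 10 members, their transcripts and hosted snoRNAs with at least 10 counts in a library, other hosts, snoRNP proteins, decay factors and coding hosts with at least 10 counts, library checks and markers. Transcripts and snoRNAs below that minimum were named after their values were seen. Some genes of the lists are not reported here. CAGE-seq and flow cytometry were not analysed here.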

Additional observations from a re-analysis of the deposited data

How the results depend on the processing

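Of the values that answer a comparison, 121 under alternative settings stayed within the counting interval of the value given (for medians, within the distance from the middle to an end of the interval of the sum) or within 1.5 times the count given, and 19 did not. Of 66 alternative log2 values for medians and sums, 17 had the other sign than the value given, and the values given were all within 1 of 0. Of single members, 154 stayed within their interval and 2 did not, and 5 had the other sign, 0 of them for a member past 1. DESeq2 size factors and total counts, with or without mitochondrial genes, changed 0 calls, but total counts turned the sum from 0.04 to -0.05 after 8 h and from 0.01 to -0.07 after 24 h, relative to 0 h. Members below -1 at 24 h against 0 h numbered 1 in place of 2 with a prior count of 2 (against 5.44% of all features), without retained introns, with the most counted transcript alone and without transcripts whose exons hold a snoRNA, and 0 by an interval that excludes 0 (12.2% of features). Without a filter, 1 member was below -1 at 8 h against 0 h, against 11.3% of features counted in both libraries. At a 1.5-fold threshold 2 members were higher at 8 h and 1 at 24 h against 0 h (13.8% and 16.7% of features), and 2 were lower at 24 h against 8 h (9.34%). Without transcripts that overlap another gene, the median at 24 h was -1.21 against 0 h and -0.96 against 8 h. The sum was -1.04 and -0.87. In that setting members below -1 at 24 h against 0 h numbered 3 in place of 2 (7.26% of features), which is every member left. At 24 h against 8 h 1 member was below -1 (3.39% of features). These medians and numbers are over 3 members, none with 10 counts at 24 h, so the filter favours low values. The median at 24 h against 8 h was 0.23 with the most counted transcript alone and 0.24 without transcripts that hold a snoRNA. The causes were not tested. A minimum of 50 counts left no member. With a minimum of 30 counts over the 3 libraries, chosen after seeing the data, 5 members were left, 1 of them below -1 at 24 h against 0 h (4.25% of features), and the median there was 0.38 in place of 0.07. The share of counts on transcripts without a particular base, 2.31%, was 3.60% with exons on either strand and 3.80% with exons of every transcript of the annotation, both chosen after seeing the data. No paired analysis was possible because each time point has 1 library. At this depth 4 of 10 members had under 10 counts in each library.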

Other observations

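The proteins that bind and process snoRNAs, the factors of nonsense-mediated decay and the coding snoRNA hosts are represented here only by transcripts with a gene name, most of them non-coding, so their values do not measure the coding RNA. Of 8 snoRNP core proteins, 2 had at least 10 counts in a library. NOP56, of the box C/D particle and itself a snoRNA host, held 13 counts at 0 h, 2 after 8 h and 9 after 24 h. NOP58 held 9, 9 and 14. Of the 8, 7 were in the table under a gene name, and the sum over these was 45, 23 and 38 counts. Of the 2 with at least 10 counts, 0 were above 1 and 1 below -1 after 8 h, against 6.03% and 8.08% of all features. After 24 h 0 were past 1 in either direction, against 8.15% above and 7.26% below, each relative to 0 h. The 1 below is NOP56, which reached 10 counts at 0 h alone, where it was highest, so the minimum favours a low ratio. With a minimum of 30 counts over the 3 libraries, chosen after seeing the data, NOP58 alone was left, and it was not past 1 in either comparison.

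Of 10 nonsense-mediated decay factors, 4 had at least 10 counts. UPF3A held 39, 21 and 18 counts, and its log2 ratio between 24 h and 0 h was -1.002 (-1.90 to -0.16). UPF1, the central helicase of the pathway, held 14, 14 and 17, SMG1 held 9, 13 and 5, and SMG9 held 10, 1 and 8. Of the 4, 1 was below -1 and 0 above 1 after 8 h, against 8.08% and 6.03% of all features. The same numbers held after 24 h, against 7.26% and 8.15%. The 1 below -1 after 8 h is SMG9, which reached 10 counts at 0 h alone, where it was highest, so the minimum itself favours a low ratio. With the minimum of 30 counts, 2 factors were left, UPF1 and UPF3A, of which 0 were below -1 after 8 h and 1 after 24 h, against 4.51% and 4.25% of features.

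Of 20 coding snoRNA hosts, 12 had at least 10 counts, and 253, 178 and 232 counts were held in sum by the 20. Of the 12, 1 was above 1 and 3 below -1 after 8 h, against 6.03% and 8.08% of all features. After 24 h 1 was above and 2 below, against 8.15% and 7.26%. With the minimum of 30 counts over the 3 libraries 9 were left, with 1 above and 2 below after 8 h, where 4.36% and 4.51% of the features that met it were. After 24 h 0 were above and 1 below, against 5.76% and 4.25%. PTCD3, which reached 10 counts at 0 h alone, held 25, 8 and 7 counts, with log2 ratios of -1.38 (-2.74 to -0.19) at 8 h and -1.72 (-3.18 to -0.47) at 24 h against 0 h. EIF4A2, which held the most, had 42, 32 and 37 counts, RACK1 had 37, 24 and 25, and NCL had 22, 18 and 21. RPL23A had 21, 16 and 28 counts, EEF2 had 16, 13 and 10, and TAF1D had 14, 8 and 5. EIF4A1 had 11, 10 and 18 counts, RPL3 had 8, 16 and 12, and GNL3 had 5, 4 and 11. NOP56, given above, is also among the 12.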
